A study of Mus musculus with 12 samples.

Results

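Resting EL-4 cells were described from 3 arrays of the series, the DMSO unstimulated group, out of 12 arrays in all. EL-4 is a mouse T lymphoma line that grows in culture and makes cytokines when it is stimulated, and it is 1 transformed line, so a gene that is high or low here need not be so in T cells of an animal. The cells received the solvent dimethyl sulfoxide (DMSO) for 30 min and no stimulus (0 h), and their total RNA was hybridised to Affymetrix Mouse Gene 1.0ST arrays. The other 3 groups, with 3 arrays each, also received DMSO, alone or as the solvent of CHX: they were stimulated with the phorbol ester PMA (10 ng/ml) together with the calcium ionophore ionomycin (1 μM) over 4 h (P/I), pretreated for 30 min with cycloheximide (CHX) at 10 μg/ml, a blocker of protein synthesis, or given both. The replicates are described as biological, and they were numbered 1 to 3 in every group.

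The members of the description were the genes of the 21789 probe sets that pair with exactly 1 gene symbol, out of 35399 probe sets. They covered 19938 genes, and a gene with several probe sets was represented by the probe set with the highest mean over the 12 arrays. A level is a log2 robust multichip average (RMA) value, which is relative and has no unit of molecules. By the rule of the description, a gene was called high at a resting mean of at least 9, near background at a mean under 5, and middle between these limits. Probe sets differ in how well they bind, so a class says how bright a gene's own probe set was, and any order given between genes is an order of probe set brightness and not of mRNA amount. Of the 19938 genes, 2641 were high (13.2%), 12029 were middle and 5268 were near background (26.4%).

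T cells recognise peptides through a receptor whose variable chains do not signal by themselves. The CD3 chains carry the signal inwards, where a kinase cascade phosphorylates the adaptor LAT, and LAT in turn feeds the Ras, protein kinase C and calcium branches. PMA and ionomycin enter this pathway below the receptor. A cell line also carries the marks of its growth in culture, such as transcripts for DNA replication, glycolysis and amino acid uptake.

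The limit for background could be set beside genes with no known role in these cells. Olfactory receptors detect odours in the nose and vomeronasal receptors detect pheromones. Of 1190 such receptor genes, 1024 were near background, 166 were middle and 0 were high. Their median was 4.43, their 95th percentile 5.36 and their 99th percentile 6.01, and the brightest, Olfr1174, stood at 7.61. A level between 5 and 6.01 was therefore within the range of these receptor genes although it fell in the middle class. Over all genes, 9485 of 19938 lay above 6.01.

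**Figure D1:**
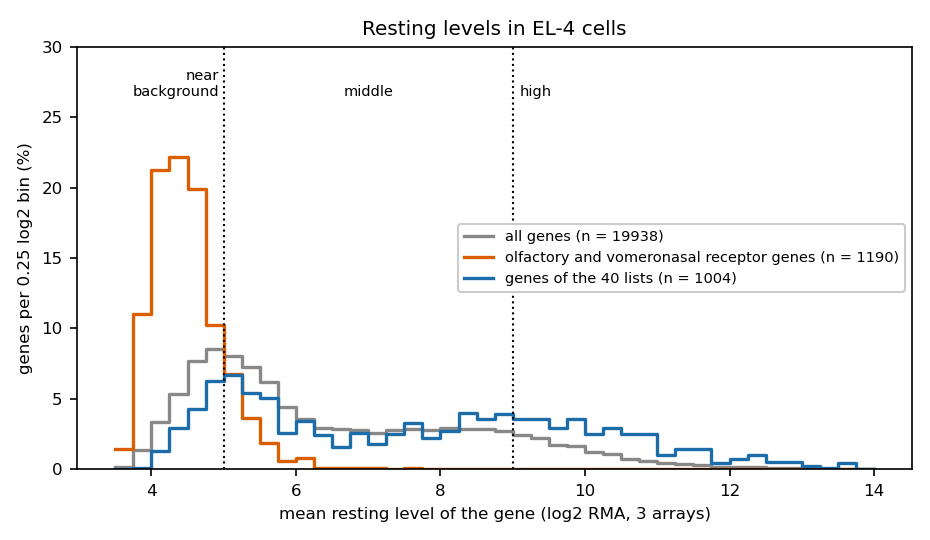
The share of genes in each bin of 0.25 log2 units of the mean resting level (3 arrays), for all 19938 genes, for 1190 receptor genes of smell and pheromones, and for the 1004 genes of 40 lists. The receptor genes peaked under the limit of 5 and thinned out by 6.01, whereas the listed genes spread up to about the highest levels measured.

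The 3 resting arrays correlated at 0.988 (replicates 1 and 2), 0.989 (1 and 3) and 0.994 (2 and 3) across all probe sets. The SD of a gene over the 3 arrays had a median of 0.118, and 232 genes had an SD of at least 0.5. Replicate 1 was the array farthest from the median for 218 of these 232 genes. Of the high genes, 88.1% were at 9 or more in each of the 3 arrays, and 86.8% of the genes near background were under 5 in each. The limits cut through a continuous distribution: 512 probe sets with 1 symbol lay within 0.25 above the limit of 9 and 607 within 0.25 below it, with Bak1 (9.01) just inside and Rbpj (8.99) just outside. At the limit of 5, 1824 lay within 0.25 below and 1699 within 0.25 above, with Tcf4 (4.98) just inside and S100a9 (5.01) just outside.

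A list of 40 gene groups with 1093 genes served to describe the cells, of which 1004 had a probe set with 1 symbol, 317 of them high and 149 near background, beside the 13.2% and 26.4% of all genes. Of the 5 genes given as markers of the cells, Lck had no such probe set and is not analysed here. The other 4 were high in every resting array. Cd3e, a signalling chain of the T cell receptor, stood at 10.69, 10.60 and 10.83 in replicates 1 to 3. Thy1, a surface glycoprotein of T cells, stood at 11.01, 10.51 and 10.68. Lat, the membrane adaptor below the receptor, stood at 11.43, 11.34 and 11.46. All these values lay above those of the 1190 receptor genes, which is a description, since the markers were given beforehand. Gata3, the transcription factor needed for T cell development and for Th2 cells, stood at 10.65, 10.71 and 10.60.

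Of 26 T cell surface receptors and coreceptors, 9 were high, 14 were middle and 3 were near background. The high members besides Cd3e and Thy1 included Cd3g (12.60 ± 0.06, SD, n = 3), a partner chain of Cd3e, Ptprc (11.77 ± 0.04), the phosphatase CD45 of blood cells, and the costimulatory receptors Cd28 (10.77 ± 0.12) and Icos (10.31 ± 0.28). Cd3d, the third CD3 chain, was middle and spread widely, at 8.32, 7.77 and 8.84 in the 3 arrays. Cd247, the zeta chain, was middle with little spread (7.86 ± 0.01). Cd2 (8.77 ± 0.43), an adhesion receptor, and Cd5 (8.19 ± 0.24), a brake on receptor signals, were middle with more spread than the median gene.

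The coreceptors that divide mature T cells into helper and cytotoxic cells were low. Cd4 stood at 5.12, 5.11 and 5.05, Cd8a at 5.43, 5.58 and 5.65, and Cd8b1 at 5.49, 5.79 and 5.53. These 9 values lay in the middle class by the limit of 5 and within the range of the receptor genes, under their 99th percentile. Trat1, an adaptor that binds the T cell receptor complex, was the lowest member of the list at 4.19 ± 0.07.

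Of 34 genes of proximal T cell receptor signalling, 12 were high, 21 were middle and 1 was near background. Beside Lat, high members were Lcp2 (10.56 ± 0.20), the adaptor SLP-76 that joins LAT, Zap70 (10.03 ± 0.08), the kinase that phosphorylates LAT, Fyn (9.61 ± 0.11), a kinase of the receptor, and Vav1 (9.32 ± 0.13), an exchange factor for Rac. Syk, the kinase that takes the place of ZAP-70 in B cells, stood at 5.27 ± 0.11, within the range of the receptor genes. Plcg1, the phospholipase of T cells, was middle at 8.56 ± 0.08, and Plcg2, known as the form of B cells, was middle as well at 8.42 ± 0.21. The lowest member was Sh2d1a (4.92 ± 0.22), an adaptor of the SLAM receptors.

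Among 48 genes of the protein kinase C, Ras and calcium branches, 11 were high, 34 were middle and 3 were near background. The Ras exchange factors of the RasGRP family, which respond to diacylglycerol and to PMA, lay far apart from each other in class. Rasgrp1 was high at 11.28, 11.29 and 11.20, whereas Rasgrp2 (4.95 ± 0.08) and Rasgrp3 (4.45 ± 0.03) were near background. Prkcq, the protein kinase C form of T cells, was middle (8.43 ± 0.31). The calcineurin subunits Ppp3ca (9.15 ± 0.19) and Ppp3cb (9.03 ± 0.02) were high, and Ppp3r2, the testis form of the regulatory subunit, was near background (4.24 ± 0.30). Of the NFAT factors that calcineurin activates, Nfatc3 was high (9.48 ± 0.25), and Nfatc1 (7.30 ± 0.18) and Nfatc2 (6.73 ± 0.30) were middle.

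Of 34 transcription factors of the T lineage, 11 were high, 22 were middle and 1 was near background. Gata3 was accompanied by Cbfb (10.47 ± 0.07), the partner of the Runx factors, Ikzf1 (10.41 ± 0.05), the lymphoid factor Ikaros, Tox (9.77 ± 0.28) and Myb (9.74 ± 0.05). Bcl11b, a factor of T cell commitment, was middle at 8.65, 8.39 and 8.21. Notch1, the receptor that starts the T cell program, was at 5.92 ± 0.07, which was within the range of the receptor genes. Most of the list lay above that range: 30 of 34 members exceeded 6.01, as did 30 of the 34 proximal signalling genes and 17 of the 26 surface genes, compared with 47.6% of all genes.

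**Figure D2:**
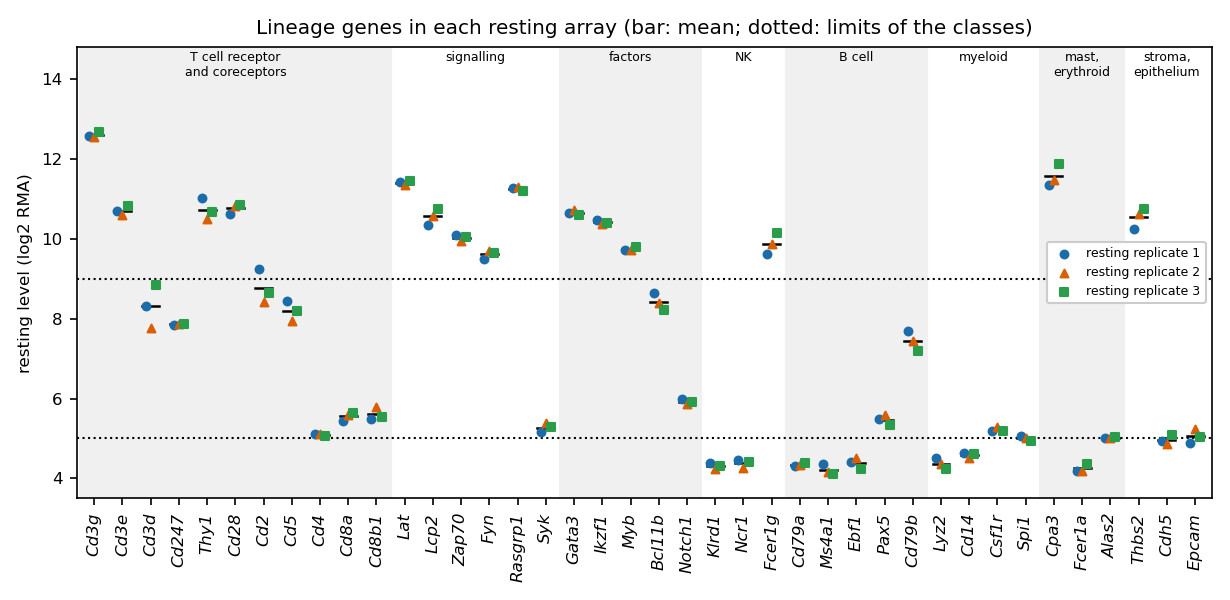
Resting level (log2 RMA) of lineage genes in each of the 3 resting arrays, with the mean as a bar and the limits of 5 and 9 as dotted lines. Cd3g, Cd3e, Thy1, Lat and Gata3 stood above 10 in every array, Cd4, Cd8a and Cd8b1 between 5 and 6, and the B cell, myeloid and NK genes mostly near or under 5, with Cd79b, Fcer1g, Cpa3 and Thbs2 above them.

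Genes that mark stages and subsets of T cells were mostly low. Of 27 thymocyte progenitor genes, 2 were high (7.41%), 19 were middle and 6 were near background (22.2%), beside 13.2% and 26.4% of all genes. Above 6.01 stood 5 of the 27 (18.5%), beside 47.6% of all genes. Rag1 (4.85 ± 0.10) and Rag2 (4.36 ± 0.15), the recombinase that assembles receptor genes, were near background, and Dntt (5.13 ± 0.22), which adds bases at the joints, and Ptcra (6.01 ± 0.11), the surrogate alpha chain, were within the range of the receptor genes. The high members were Lmo2, a cofactor of blood progenitors known as an oncogene of T cell leukaemia, at 9.19, 9.85 and 10.18, and the adhesion receptor Cd44, at 8.99, 9.38 and 9.39. Replicate 1 was the lowest array for both.

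Of 28 genes of helper and regulatory subsets, 1 was high, 14 were middle and 13 were near background. The high gene was Stat6 (9.53 ± 0.10), which relays interleukin-4 signals. The master factors of other subsets, Tbx21 (5.59 ± 0.23) of Th1 cells, Foxp3 (5.64 ± 0.13) of regulatory cells, Eomes (4.75 ± 0.06) of cytotoxic cells and Prdm1 (4.95 ± 0.18) of effector cells, stood within the range of the receptor genes. Among the subset factors measured, Gata3 was high, with Maf (7.40 ± 0.30), a factor that drives Il4, in the middle class. Bcl6, the factor of follicular helper cells, was middle with a large spread, at 7.61, 8.68 and 9.05.

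Markers of other cell types were compared with the same limits. None of 23 B cell markers and none of 30 myeloid and dendritic cell markers was high, whereas 20 of 28 pan-leukocyte genes were. Of the B cell markers, 12 were middle and 11 were near background, and their mean level over the list ranged from 5.28 to 5.29 in the 3 arrays. Ms4a1 (4.21 ± 0.13), Cd79a (4.35 ± 0.05) and Ebf1 (4.39 ± 0.13), which define B cells, were near background. Of the myeloid and dendritic markers, 17 were middle and 13 were near background, with list means of 5.17 to 5.21. Lyz2 (4.37 ± 0.14), Cd14 (4.58 ± 0.07) and Itgam (4.83 ± 0.06) were near background. Above 6.01 stood 4 of the 30, among them Cebpb (7.23 ± 0.10), Batf3 (6.87 ± 0.15) and Cd68 (6.72 ± 0.17).

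The pan-leukocyte genes ran the other way, with 20 high, 8 middle and 0 near background. Coro1a, an actin regulator of white blood cells, stood at 12.39, 12.42 and 12.36, and Laptm5, a lysosomal protein of blood cells, at 11.68, 11.63 and 11.86. Of 18 genes of liver, muscle, brain and pancreas, 0 were high, 14 were middle and 4 were near background, and 6 exceeded 6.01. Alb, the serum albumin of liver, stood at 4.87 ± 0.03, and the highest members were Mbp (6.99 ± 0.08), a myelin protein, and Acta1 (6.78 ± 0.14), the actin of skeletal muscle. Of 15 enzymes of liver-type metabolism, 0 were high, 5 were middle and 10 were near background, and Bdh1 (8.67 ± 0.08), which makes the ketone body beta-hydroxybutyrate, was the member above 6.01.

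Some markers of other lineages stood far above the rest of their lists. Cpa3, a protease stored in mast cell granules, was high at 11.34, 11.48 and 11.88. Other mast cell genes of the same list, Fcer1a (4.25 ± 0.10), Ms4a2 (4.44 ± 0.06), Mcpt4 (4.96 ± 0.12) and Tpsb2 (5.21 ± 0.06), stood within the range of the receptor genes. Of the list of 17 erythroid, megakaryocyte and mast cell markers, 3 exceeded 6.01: Cpa3, Gata2 (6.36 ± 0.13) and Tfrc (11.40 ± 0.13), the transferrin receptor that dividing cells use to take up iron.

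Fcer1g, the gamma chain shared by Fc receptors, was high at 9.62, 9.86 and 10.14. In the same list of 21 genes of gamma delta T, natural killer T and NK cells, 1 was high, 12 were middle and 8 were near background, and Tyrobp (5.14 ± 0.08), the related adaptor of NK cells, Klrd1 (4.32 ± 0.08) and Ncr1 (4.38 ± 0.10), which are NK receptors, were low. Thbs2, a secreted matrix protein of connective tissue, was high at 10.24, 10.62 and 10.74, whereas Col1a1 (6.75 ± 0.07), Dcn (4.62 ± 0.10) and Lum (4.09 ± 0.05), other genes of fibroblasts, were not.

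Of the B cell list, Pou2af1, a coactivator of octamer-binding factors, was middle at 8.62, 8.67 and 8.97, and Cd79b, a signalling chain of the B cell receptor, was middle at 7.70, 7.43 and 7.19. Apart from Cpa3, Fcer1g, Pou2af1 and Cd79b, the B cell, mast cell and NK cell markers named above were within the range of the receptor genes, while Gata2 was slightly over it. The list of fibroblast, endothelial and epithelial markers was less low, with 8 of 24 members above 6.01, Col1a1 among them. The source of the signal of these genes was not tested. In bulk RNA, many cells with a little of a transcript and few cells with much of it cannot be told apart.

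Genes of the sex chromosomes were low too. Xist, the RNA that silences an X chromosome in female cells, stood at 4.53 ± 0.04, and the Y-linked genes Kdm5d (4.53 ± 0.11), Eif2s3y (4.19 ± 0.07) and Uty (4.11 ± 0.09) were near background as well. Of the 9 genes listed, 7 were near background. Sry was an exception at 6.98, 6.93 and 6.99, above the 99th percentile of the receptor genes.

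The receptors through which T cells receive cytokines fell in all 3 classes, in shares close to those of all genes. Of 31 cytokine receptor chains, 4 were high, 18 were middle and 9 were near background. These were 12.9% high and 29.0% near background, beside 13.2% and 26.4% of all genes. Ifngr1 (10.92 ± 0.18) and Ifngr2 (9.25 ± 0.30), the chains of the interferon gamma receptor, Il7r (9.85 ± 0.38), the receptor for the survival cytokine interleukin-7, and Il9r (9.65 ± 0.09), the receptor for interleukin-9, were high. The chains that bind interleukin-2 were near background, Il2ra at 4.83, 5.04 and 4.78 and Il2rb at 4.69, 4.73 and 4.70. The common chain Il2rg is not analysed here.

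Below the receptors, 5 of 18 JAK, STAT and SOCS genes were high and 13 were middle, among the high ones Jak1 (10.94 ± 0.07) and Stat3 (9.88 ± 0.13). The cytokines themselves mostly had dim probe sets at rest. Of 37 cytokines and chemokines, 2 were high, 21 were middle and 14 were near background, and 8 of 37 exceeded 6.01. The high ones were Mif (12.15 ± 0.10), an inflammatory mediator that many cells store, and Tgfb1 (10.32 ± 0.12), which restrains T cells. Il2 stood at 4.43, 4.57 and 4.67, Il4 at 4.89, 4.68 and 4.58, and Ifng, the interferon, at 4.93 ± 0.15.

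Adhesion and homing genes gave a mixed picture. Of 36 chemokine receptors, selectins and integrins, 4 were high (11.1%), 20 were middle and 12 were near background (33.3%), beside 13.2% and 26.4% of all genes. Cxcr4, the receptor for the chemokine CXCL12, was high (11.13 ± 0.06), whereas Ccr7 (6.59 ± 0.19), which guides T cells to lymph nodes, was middle and S1pr1 (4.90 ± 0.13), which guides them out, was near background. The chains of the integrin LFA-1 were high, Itgal at 10.18, 10.31 and 10.54 and Itgb2 at 10.11, 9.93 and 10.03. The chains of the integrin VLA-4 were both near background, Itga4 at 4.76, 4.98 and 4.89 and Itgb1 at 4.74, 4.99 and 4.87.

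Of 20 inhibitory receptors and ligands, 1 was high, 13 were middle and 6 were near background. Pdcd1, which encodes the checkpoint receptor PD-1, was the high member at 10.76, 10.54 and 10.72. Ctla4 (4.85 ± 0.05), Havcr2 (4.88 ± 0.23) and Lag3 (5.51 ± 0.08), other checkpoint receptors, were within the range of the receptor genes, and the PD-1 ligand Cd274 was middle at 6.79 ± 0.19. None of 21 members of the TNF receptor superfamily was high, and 20 of them were middle, among them Tnfrsf1b (8.69 ± 0.21), a receptor for TNF.

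Antigen presentation split along its 2 classes. Of 21 MHC and antigen processing genes, 10 were high, 9 were middle and 2 were near background. Most genes named for class I presentation were high: B2m (12.12 ± 0.24), its light chain, the peptide transporters Tap1 (9.18 ± 0.20) and Tap2 (9.14 ± 0.06), and the immunoproteasome subunits Psmb8 (9.27 ± 0.11) and Psmb9 (9.41 ± 0.12). The third immunoproteasome subunit, Psmb10, was middle at 8.69, 7.69 and 7.92. The genes for class II presentation were low, with H2-Aa (4.86 ± 0.05), Cd74 (4.84 ± 0.06), the invariant chain, and their activator Ciita (5.21 ± 0.11) within the range of the receptor genes.

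Few receptor tyrosine kinases, through which growth factors act, stood above the receptor genes of smell and pheromones. Of 37 receptor tyrosine kinases, 0 were high, 28 were middle and 9 were near background, and 6 exceeded 6.01, among them Ryk (8.96 ± 0.10), a receptor for Wnt ligands. Igf1r (4.73 ± 0.13) and Insr (5.06 ± 0.09), the receptors for insulin-like growth factor and insulin, and Kit (5.29 ± 0.13), the receptor of progenitors and mast cells, were within the range of the receptor genes. Of 39 nuclear receptors, 2 were high, 28 were middle and 9 were near background, and 19 of them exceeded 6.01, a share of 48.7% beside 47.6% of all genes. Nr3c1, the glucocorticoid receptor that steroids use to kill lymphoma cells, was high at 9.46 ± 0.23, and Nr4a1, an orphan receptor, was high at 9.62, 10.50 and 10.53, lowest in replicate 1. The oestrogen receptor Esr1 stood at 5.36 ± 0.04.

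The machinery of growth was at the upper end of the scale. Of 36 DNA replication genes, 24 were high and 12 were middle, and of 30 mitosis genes 20 were high and 10 were middle, so that none of the 66 was near background. Pcna, the sliding clamp of DNA polymerase, stood at 11.75 ± 0.18, the helicase subunit Mcm2 at 10.95 ± 0.33, and the proliferation marker Mki67 at 11.72 ± 0.05. Of 26 G1 cyclins, kinases and inhibitors, 11 were high and 15 were middle. Cdk4 (11.34 ± 0.19), Cdk6 (11.27 ± 0.06) and Ccnd1 (11.11 ± 0.06), a cyclin that activates these kinases, were high.

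The D cyclins were not all in 1 class. Ccnd1 stood at 11.12, 11.04 and 11.15 in the 3 arrays, Ccnd3 at 8.81, 8.97 and 9.13, and Ccnd2 at 6.51, 6.35 and 6.42, so that Ccnd1 was high and the other two were middle. Cdkn2a, the inhibitor locus that is often lost in lymphoma, stood at 5.85 ± 0.09 and was within the range of the receptor genes, whereas its neighbour Cdkn2b was middle at 8.24 ± 0.24. In the MYC network, 7 of 17 genes were high and 10 were middle. Myc, the growth-promoting factor, was high but spread between the arrays at 11.64, 10.68 and 10.59, and its relative Mycn stood at 5.35 ± 0.03.

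Of 35 genes of PI3K, mTOR and growth control, 8 were high, 24 were middle and 3 were near background, with Inpp5d (10.45 ± 0.11), the lipid phosphatase SHIP1, and Akt1 (10.20 ± 0.28) high. Of the 14 genes of the Bcl2 family, Mcl1 (11.33 ± 0.13), which protects cells from death, and Bak1 (9.01 ± 0.37), which kills them, were high and 12 were middle, among them Bcl2 (8.40 ± 0.38). The high members made up 14.3% of this list, beside 13.2% of all genes. In the p53 pathway, 3 of 18 genes were high (16.7%, beside 13.2% of all genes) and 15 were middle. Perp (11.32 ± 0.35), a membrane protein and p53 target, was at the upper end of the list, and Trp53 itself is not analysed here. Of 33 chromatin enzymes, 18 were high, 14 were middle and 1 was near background: Dnmt1 (10.62 ± 0.12), which copies DNA methylation, was high, Dnmt3a (9.26 ± 0.02), which sets it anew, was high, and Dnmt3l (4.60 ± 0.12), their germ cell cofactor, was near background.

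Several metabolic lists had many high members, and forms of the same enzyme or transporter could fall in different classes. Of 31 genes of glucose uptake and glycolysis, 15 were high, 14 were middle and 2 were near background. Slc2a1, the glucose transporter of dividing cells, was high (12.21 ± 0.24), whereas Slc2a2 (5.35 ± 0.02) of liver and Slc2a4 (5.62 ± 0.12) of muscle and fat were within the range of the receptor genes. Not every form known from another tissue was low: Aldoc, the aldolase of brain, was high at 9.01, 10.60 and 10.65, Eno3, the enolase of muscle, was middle at 8.99 ± 0.08, and Cox6a2, a cytochrome oxidase subunit of muscle, was middle at 8.26 ± 1.06. The enzymes Aldoa (13.54 ± 0.22), Hk1 (11.28 ± 0.12) and Hk2 (10.41 ± 0.09) were high.

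Genes with a relative that serves in testis were chosen as further pairs. Ldha, the lactate dehydrogenase of rapid glycolysis, stood at 12.67, 12.77 and 12.83, and Ldhc, its testis form, at 4.68, 4.72 and 4.61. Pgk1, a kinase of glycolysis, stood at 12.65, 12.79 and 12.80, and Pgk2, its testis form, at 5.08, 5.06 and 5.03. Pdha1, a subunit of pyruvate dehydrogenase, stood at 10.91, 10.99 and 10.98, and Pdha2, its testis form, at 4.40, 4.54 and 4.54. In each of these 3 pairs the form used by body cells was high in every array, and the testis form lay under 5.36, the 95th percentile of the receptor genes.

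Mitochondrial genes were also high in large part. Of 32 genes of the citrate cycle and glutamine use, 24 were high, 6 were middle and 2 were near background, and of 32 genes of the respiratory chain, 22 were high, 9 were middle and 1 was near background. Mdh2 (12.27 ± 0.16), a dehydrogenase of the cycle, and Atp5b (12.20 ± 0.05), a subunit of ATP synthase, were high, and Cyct, the cytochrome c of testis, was near background (4.53 ± 0.16). Its counterpart Cycs was high at 10.69, 9.76 and 9.89, although the lowest of its 3 probe sets stood at 5.06.

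Supply pathways followed. Of 25 genes of nucleotide synthesis, 15 were high and 10 were middle, with Rrm1 (11.45 ± 0.26), a subunit of ribonucleotide reductase. Of 21 genes of serine, one-carbon and amino acid supply, 13 were high, 6 were middle and 2 were near background, with Asns (12.54 ± 0.18), which makes asparagine, and the amino acid transporter chains Slc7a5 (11.65 ± 0.12) and Slc3a2 (11.60 ± 0.23). Of 21 genes of cholesterol and fatty acid synthesis, 14 were high, 6 were middle and 1 was near background. Scd2, a desaturase, was high (12.48 ± 0.32) and Abca1, which exports cholesterol, was near background (4.80 ± 0.10). Of 28 ribosomal proteins and translation factors, 22 were high, and of 14 constitutive reference genes 12 were high, with Actb at 13.72 ± 0.07.

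**Figure D3:**
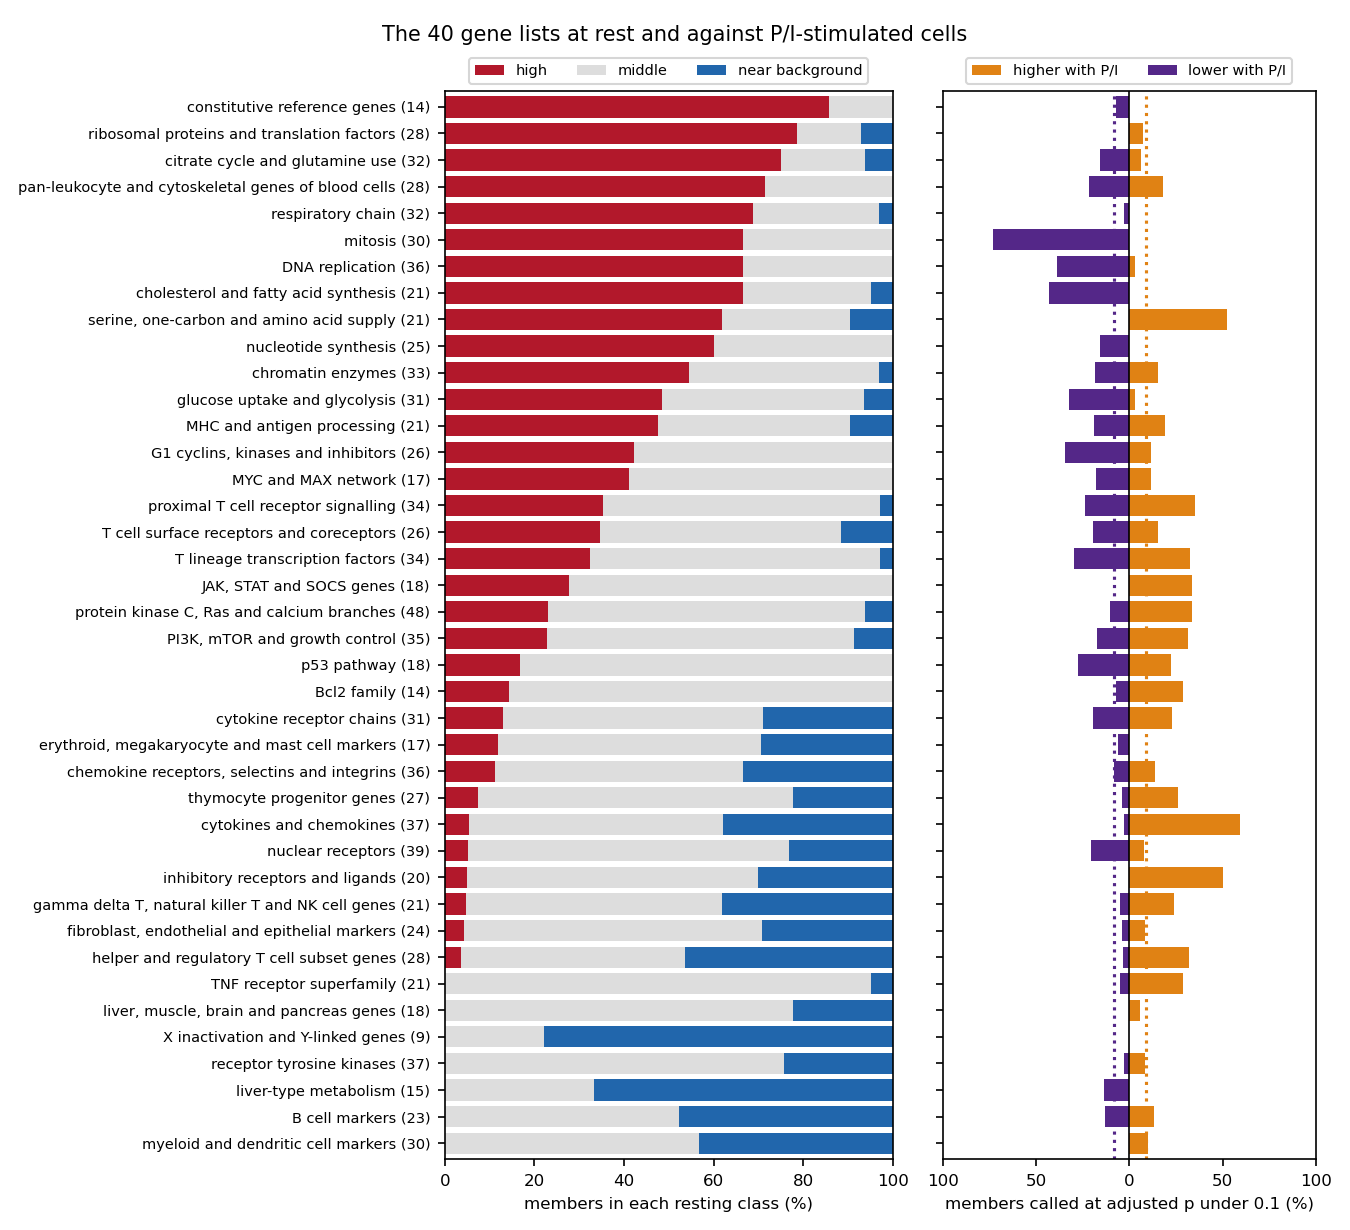
Left, the share of the measured members of each of 40 lists (number in brackets) that were high, middle or near background at rest. Right, the share called higher or lower with P/I (limma, adjusted p under 0.1), with the shares over all probe sets tested, 9.05% and 8.42%, as dotted lines; mitosis genes lay far to the lower side and cytokines and chemokines far to the higher side.

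The promoters of these genes showed a further contrast that the classes did not use. RefSeq start sites on GRCm38.p6 gave the 250 bases before the start for 12935 of the 19938 genes, those with exactly 1 promoter listed. A promoter was called rich in CpG when its GC content was at least 50% and its ratio of observed to expected CG dinucleotides at least 0.6. CpG-rich promoters are common in genes that many cell types use. Of the high genes, 78.3% had a promoter rich in CpG (1398 of 1786), compared with 51.8% of the middle genes (3927 of 7585), 13.9% of the genes near background (496 of 3564) and 0 of 1008 receptor genes of smell and pheromones. The median number of CG dinucleotides in the 250 bases was 19, 13, 2 and 1 in the same order. The last 2 groups overlap, since 1024 of the 1190 receptor genes were near background, and the receptor genes lower the share of that class.

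Resting T cell genes fell on both sides of this contrast, and 8 promoters show it, with every CG dinucleotide in capitals and read 5′ to 3′ on the strand of the gene. The first 4 belong to genes of the T cell receptor pathway and lineage that were high at rest, and the other 4 to the forms of Pgk and Pdha used by body cells and by testis. Their positions on GRCm38.p6 are chr9:44980432-44980681 (minus strand) for Cd3g, chr9:45009612-45009861 (minus) for Cd3e, chr7:126369569-126369818 (minus) for Lat, chr2:9878601-9878850 (minus) for Gata3, chrX:106186850-106187099 (plus) for Pgk1, chr17:40208610-40208859 (minus) for Pgk2, chrX:160138431-160138680 (minus) for Pdha1 and chr3:141212356-141212605 (minus) for Pdha2. Each stretch ends 1 base before the start site.
Cd3g: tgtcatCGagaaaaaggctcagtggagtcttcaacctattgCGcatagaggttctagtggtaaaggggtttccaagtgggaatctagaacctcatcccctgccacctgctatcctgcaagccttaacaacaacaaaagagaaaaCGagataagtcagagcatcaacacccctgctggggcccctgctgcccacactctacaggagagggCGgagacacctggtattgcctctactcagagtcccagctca
Cd3e: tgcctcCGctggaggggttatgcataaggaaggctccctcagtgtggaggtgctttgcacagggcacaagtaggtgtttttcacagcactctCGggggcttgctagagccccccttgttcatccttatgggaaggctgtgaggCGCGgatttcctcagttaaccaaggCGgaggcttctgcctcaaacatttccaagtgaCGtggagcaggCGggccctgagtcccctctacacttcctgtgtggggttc
Lat: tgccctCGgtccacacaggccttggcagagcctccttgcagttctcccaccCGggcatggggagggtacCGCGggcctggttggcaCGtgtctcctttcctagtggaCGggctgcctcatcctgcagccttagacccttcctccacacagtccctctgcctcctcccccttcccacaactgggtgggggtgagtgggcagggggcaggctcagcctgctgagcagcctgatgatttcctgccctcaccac
Gata3: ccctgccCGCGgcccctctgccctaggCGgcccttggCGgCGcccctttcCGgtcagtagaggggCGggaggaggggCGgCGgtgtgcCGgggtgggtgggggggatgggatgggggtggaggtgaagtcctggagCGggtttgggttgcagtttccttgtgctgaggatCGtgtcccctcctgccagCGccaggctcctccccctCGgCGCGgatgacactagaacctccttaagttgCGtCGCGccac
Pgk1: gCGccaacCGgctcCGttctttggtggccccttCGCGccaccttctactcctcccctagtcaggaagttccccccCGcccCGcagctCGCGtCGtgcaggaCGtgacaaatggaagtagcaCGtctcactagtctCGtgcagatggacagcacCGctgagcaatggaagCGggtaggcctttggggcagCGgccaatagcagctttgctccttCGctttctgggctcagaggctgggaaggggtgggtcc
Pgk2: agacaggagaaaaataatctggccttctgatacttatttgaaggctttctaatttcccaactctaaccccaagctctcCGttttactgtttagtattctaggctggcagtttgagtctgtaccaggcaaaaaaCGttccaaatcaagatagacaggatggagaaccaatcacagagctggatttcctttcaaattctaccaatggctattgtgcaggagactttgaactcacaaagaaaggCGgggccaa
Pdha1: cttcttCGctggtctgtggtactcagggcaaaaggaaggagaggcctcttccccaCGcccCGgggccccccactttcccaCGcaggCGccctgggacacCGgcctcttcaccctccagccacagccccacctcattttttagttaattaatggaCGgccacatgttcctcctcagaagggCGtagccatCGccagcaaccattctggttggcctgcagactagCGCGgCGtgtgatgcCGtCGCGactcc
Pdha2: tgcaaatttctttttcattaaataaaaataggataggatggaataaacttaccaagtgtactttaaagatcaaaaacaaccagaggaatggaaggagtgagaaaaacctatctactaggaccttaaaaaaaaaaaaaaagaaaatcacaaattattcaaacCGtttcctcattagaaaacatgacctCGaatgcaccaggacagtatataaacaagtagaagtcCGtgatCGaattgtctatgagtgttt

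Cd3g, Cd3e and Lat carried 4, 7 and 6 CG dinucleotides and were not rich in CpG, although their mRNAs were high. Gata3 carried 19 and Pgk1 carried 17, and both were rich in CpG. Pdha1 carried 15 against 4 in Pdha2, and Pgk2 carried 3. Of the 12 surface receptors and coreceptors with a promoter in the table, 0 were rich in CpG, and of the 8 high genes of proximal signalling 2 were. By contrast, all 5 high transcription factors of the T lineage with a promoter in the table were rich in CpG, as were 15 of 16 high genes of the respiratory chain. These counts describe the lists and were not tested.

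Short motifs followed the base composition. The GC box (GGGCGG, either strand), which contains a CG dinucleotide, was present in 65.8% of the promoters of high genes, 53.2% of those of middle genes and 19.7% of those near background, beside 45.7% of the 12935 measured genes and 32.4% of all 22862 promoters in the table. An ETS motif (CCGGAA, either strand), which also contains CG, was in 30.0%, 17.9% and 4.85%, beside 16.0% of the measured genes and 12.2% of all. The TATA box (TATAAA, either strand) went the other way, in 6.50%, 8.03% and 22.8%, beside 11.9% of the measured genes and 13.6% of all. The receptor genes of smell and pheromones, most of them near background, had a TATA box in 38.4%. The CCAAT box (CCAAT, either strand) was nearly level, in 38.6%, 35.6% and 35.2%, beside 35.9% of the measured genes and 34.7% of all. A match is a run of letters and does not show that a factor binds there.

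**Figure D4:**
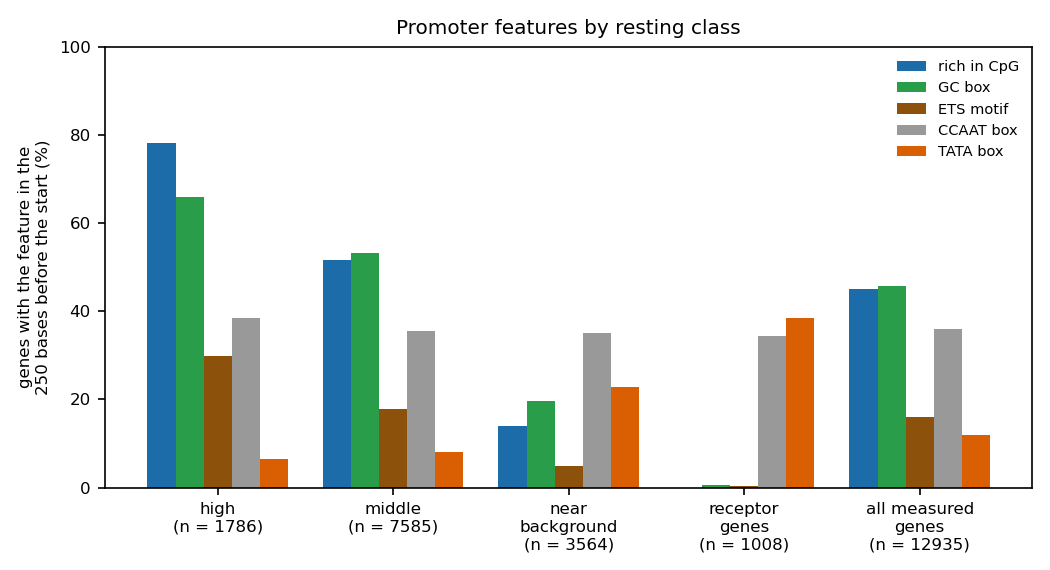
Share of genes (vertical axis, percent) whose 250 bases before the start site were rich in CpG or held a motif on either strand, by resting class, for receptor genes of smell and pheromones and for all measured genes with 1 promoter listed. The share rich in CpG was 78.3% for high genes, 51.8% for middle genes and 13.9% for genes near background, while the CCAAT box stayed between 34.4% and 38.6%.

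Replicate 1 stood apart from the other resting arrays in several lists. It had more genes at 9 or above (2841, against 2509 and 2621 in replicates 2 and 3) and more under 5 (5586, against 5007 and 5213). Replicate 1 was the highest of the 3 arrays for 36 of 36 DNA replication genes, 24 of 25 nucleotide synthesis genes and 28 of 30 mitosis genes, beside 36.4% of all genes. The constitutive reference genes leaned the same way, with replicate 1 highest for 12 of 14. Replicate 1 was the lowest for 17 of 21 genes of cholesterol and fatty acid synthesis and for 23 of 31 genes of glucose uptake and glycolysis, beside 42.4% of all genes. The mean level of the replication list was 9.60, 9.23 and 9.17 in replicates 1 to 3, that of nucleotide synthesis 9.69, 9.20 and 9.20, and that of cholesterol and fatty acid synthesis 8.78, 9.18 and 9.18.

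Single genes showed the same difference. Hmgcs1, an early enzyme of cholesterol synthesis, stood at 9.45, 10.65 and 10.61, and Insig1, a sensor of sterols, at 10.77, 11.81 and 11.95. Umps, an enzyme of pyrimidine synthesis, ran the other way at 10.18, 9.16 and 9.28, as did Myc. Dusp4, a phosphatase of MAP kinases, had the largest SD of the 19938 genes, at 6.64, 8.74 and 9.34, and Mxd4, an antagonist of MYC, stood at 7.17, 8.93 and 8.90.

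Replication, nucleotide and cholesterol genes leaned the same way in the arrays of the other groups with the same replicate number. With CHX and no stimulus, replicate 1 was the highest array for 31 of 36 replication genes and 24 of 25 nucleotide synthesis genes, and the lowest for 16 of 21 cholesterol and fatty acid genes. With P/I it was the highest for 33 of 36 and 23 of 25, beside 34.1% of all genes, and the lowest for 13 of 21, beside 49.0% of all genes. In cells given both CHX and P/I it was the highest for 32 of 36 and 23 of 25 and the lowest for 14 of 21. Mitosis genes were an exception there, with replicate 1 highest for 9 of 30 genes, and glucose uptake and glycolysis genes were an exception with P/I, where it was lowest for 14 of 31. With 1 array on the one side and 2 on the other no test was made, and what set replicate 1 apart was not tested. Without replicate 1, 29 of the 1004 listed genes changed class and none moved between high and near background.

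**Figure D5:**
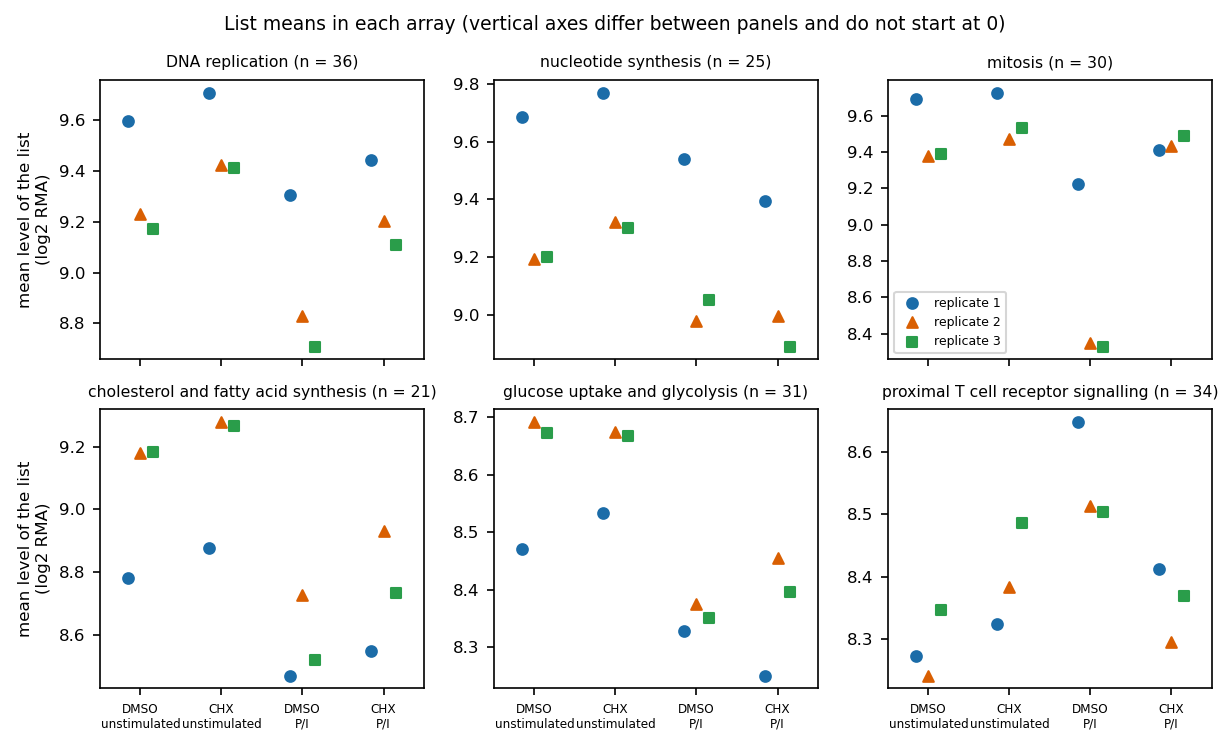
Mean log2 RMA level of 6 gene lists in each of the 12 arrays, by group and replicate number, with a vertical axis of its own in each panel. Replicate 1 lay above the others for DNA replication and nucleotide synthesis and below them for cholesterol and fatty acid synthesis in all 4 groups, and proximal T cell receptor signalling had no such order.

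The resting profile was then set against cells stimulated with P/I. The resting arrays are listed at 0 h and the P/I arrays at 4 h, and no unstimulated group is listed at 4 h. Effects of the stimulus and of the time in culture therefore cannot be told apart in this comparison. The comparison used limma on all 12 arrays and the 23410 probe sets with at least 1 symbol, at a Benjamini-Hochberg adjusted p under 0.1. By this rule 9.05% of the probe sets were higher and 8.42% lower with P/I than at rest. Of the 1004 listed genes, 173 were higher (17.2%) and 162 lower (16.1%). Blocking on the replicate number gave 205 higher (20.4%) and 244 lower (24.3%), beside 13.0% and 12.9% of all probe sets with the block. The share called also differed by resting class. Without the block, 14.5% of all genes high at rest were higher and 17.9% lower, but 2.26% and 0.76% of those near background. The classes were cut from the same resting arrays that enter this comparison, and genes near background have little room to be lower. This difference between classes was therefore partly fixed by the rule. Of the genes that were high at rest, 87.7% still had a mean of at least 9 with P/I and 0 were under 5. Il2, Il4, the NF-κB inhibitor Tnip3 and the olfactory receptor Olfr644 were the 4 genes near background at rest whose mean with P/I was at least 9.

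Growth lists with many high members at rest held more lower than higher calls. Of the 30 mitosis genes, 22 were lower and 0 higher, with a median log2 fold change of -0.89, and of the 36 replication genes, 14 were lower and 1 higher (22 and 1 with the replicate block), with a median of -0.39. Of 31 genes of glucose uptake and glycolysis, 10 were lower and 1 higher, and of 21 genes of cholesterol and fatty acid synthesis, 9 were lower and 0 higher. The lists of ribosomal proteins and of the respiratory chain moved little, with 2 higher and 0 lower of 28, and 0 higher and 1 lower of 32 (3 and 1, and 2 and 3, with the block). Against this, 11 of 21 genes of serine, one-carbon and amino acid supply were higher and 0 lower.

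Other lists moved to the higher side. Of 37 cytokines and chemokines, 22 were higher with P/I and 1 lower (25 and 2 with the replicate block), and of 20 inhibitory receptors and ligands, 10 were higher and 0 lower. Il2rb, near background at rest, was higher by log2 2.87 (SE 0.11, adjusted p = 1.37e-08 by limma), and Il2ra by log2 2.16 (SE 0.27, adjusted p = 0.000186). Tec, a kinase of the receptor pathway, was higher by log2 3.18 (SE 0.11, adjusted p = 1.19e-08), and Cd27, a costimulatory receptor of the TNF receptor family, by log2 2.71 (SE 0.10, adjusted p = 1.19e-08). In all 4 genes the 3 arrays with P/I lay above the 3 resting arrays. Il2rb, Tec and Cd27 were among the listed genes with the smallest adjusted p in this comparison. For them this order was therefore nearly fixed in advance.

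T cell identity genes were called in both directions. Of the 26 surface genes, 4 were higher and 5 lower (5 and 8 with the block), and of the 34 lineage factors, 11 were higher and 10 lower. Cd3g changed by log2 -0.50 (SE 0.07, adjusted p = 0.000578) and Cd3e by log2 -0.34 (SE 0.09, adjusted p = 0.0271), and Lat was higher by log2 0.52 (SE 0.08, adjusted p = 0.00112). All 3 stayed above 10. Gata3 missed the limit, with log2 0.55 (SE 0.21, adjusted p = 0.115), and passed it with the replicate block (adjusted p = 0.0716). Cd4 and Cd8a stayed within the range of the receptor genes, at means of 5.08 and 5.46 with P/I.

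Several genes high at rest fell. Ifngr1 fell by 2.06 on the log2 scale (SE 0.17, adjusted p = 7.32e-06 by limma), Rbl2, a pocket protein that restrains the cell cycle, by 1.76 (SE 0.14, adjusted p = 7.63e-06) and Fli1, an ETS factor of blood cells, by 1.52 (SE 0.13, adjusted p = 9.48e-06). Rasgrp1 changed by log2 -1.12 (SE 0.23, adjusted p = 0.00601) and Myb by log2 -1.30 (SE 0.13, adjusted p = 4.95e-05). Among the genes of other lineages, Cpa3 changed by log2 -1.05 (SE 0.20, adjusted p = 0.00389) and Thbs2 by log2 1.22 (SE 0.17, adjusted p = 0.000446), so that both remained high with P/I, at means of 10.52 and 11.76.

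CHX given to resting cells gave few calls. These cells are listed at 0 h after a pretreatment of 30 min, so the comparison covers a short exposure to CHX and not 4 h of it. Over all probe sets 0.0299% were higher and 0.0% lower at the same limit, 7 and 0 of 23410. Of the 1004 listed genes 0 were called in limma, with 26 higher and 17 lower at an unadjusted p under 0.05. At that unadjusted limit, 967 of all 23410 probe sets were higher and 641 lower. An ordinary linear model also called 0 of the listed genes. The fit with the replicate block called 2 of them higher (0.199%) and 0 lower, beside 0.491% and 0.0171% of all probe sets. The count of 7 depended on single arrays: 43 probe sets were higher and 4 lower without CHX unstimulated replicate 1, 3 were higher without DMSO unstimulated replicate 1, and 0 were higher when any of the other 4 arrays was left out. Of the high genes, 98.7% kept a mean of at least 9 with CHX. The comparisons with P/I and with CHX share the 3 resting arrays and are given side by side without being set against each other.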

How the data were processed

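Total RNA of EL-4 cells, 3 arrays in each of 4 groups, was measured on Affymetrix Mouse Gene 1.0ST arrays. The deposited values are log2 RMA values: per the labels and the study's methods, the authors corrected the background with an adjustment for probe sequence, quantile normalised the arrays and summarised the probes by RMA in Partek, with no version given in the sources used here. No depth applies to arrays, and 3 arrays a group limit the precision. Per-array values were kept as deposited.

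Probe sets were named through the platform's gene annotation. Of 35399, 21789 had 1 symbol, 1621 had several and 11989 had none, and only those with 1 symbol were classed. For 999 genes with several probe sets, 339 had probe sets of different classes. Lck, Tcf7, Il2rg, Trp53 and other listed genes had no such probe set and are not analysed here. Members and lists were chosen with earlier results of these data known.

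Contrasts with P/I and with CHX were fitted in limma 3.58.1 (R 4.3.3, lmFit and eBayes, all 12 arrays, a mean per group) over the 23410 probe sets with at least 1 symbol, with Benjamini-Hochberg adjustment at 0.1. The fit was checked on simulated data. These held independent noise and no replicate effect, so the check does not cover a difference between replicates. Deviations from the group means correlated between same-numbered arrays (0.574, 0.437 and 0.270 for rest and P/I, and 0.750, 0.536 and 0.512 for rest and CHX). Between rest and P/I, replicates 2 and 3 also correlated across numbers (0.258 and 0.253), so pairing by number was weakly supported for replicate 3. The main fit had no block, and the p-values quoted are from it unless the block is named. A fit with the number as a block was an alternative. Other alternatives were leaving out each array, median centring, quantile normalisation, other class limits and summaries, another probe set per gene, a filter on dim probe sets, all probe sets, a variance trend, an ordinary linear model and a fit of the compared groups alone.

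The genes named were the key genes of each list, the 3 highest and 3 lowest of each list at rest, the 15 highest and the 10 most variable genes, and up to 6 called members per contrast and direction, passing over predicted and small RNA genes. Mcpt4, Tpsb2, Umps, Psmb10, Eno3, Rbpj, S100a9, Tnip3, Olfr644 and Olfr1174 were named after their values were seen. Promoters were read from RefSeq start sites on GRCm38.p6, matched by Entrez gene number, for 12935 genes. Tables were handled in pandas 2.3.3 and numpy 2.4.6, and plots drawn in matplotlib 3.10.9.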

Additional observations from a re-analysis of the deposited data

Results flagged for a closer look

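Probe sets with no gene symbol took no part in the description, and 1187 of these 11989 (9.90%) had a resting mean of at least 9. They were picked out because they carry signal outside the genes described. Among probe sets with 1 symbol the share was 14.1%, and what these probe sets detect was not tested.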

How the results depend on the processing

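The 3077 probe sets high at rest became 2087 and 4296, and the 5783 near background became 2294 and 9030, when both limits were made stricter and looser by 0.5. With the replicate number as a block, P/I gave 3034 higher and 3026 lower calls, against 2118 and 1970 without it; median centring gave 2048 and 1594, and quantile normalisation 2149 and 2400. For CHX, where 7 probe sets were higher and 0 lower, the block gave 115 and 4, and the ordinary linear model, the compared groups alone and the test of all probe sets each gave 0 higher. Leaving out 1 array at a time gave 0 to 43 higher and 0 to 4 lower with CHX, the upper ends without CHX unstimulated replicate 1. The counts of called list members were recomputed under these alternatives, and 42 moved by over 1.5 times while 438 did not; of the class counts by list, 13 moved and 547 did not. The P/I changes of the 12 listed genes with the smallest adjusted p in each direction kept direction and call in 168 of 168 recomputed values. These genes were picked from the same data for their small p, so this was nearly fixed in advance and says little about other genes. Gata3 passed the limit of limma with the block (adjusted p = 0.0716) and not without it (0.115). The cause of the moves was not tested. Signal over background limits levels under 6.01, which receptor genes of smell and pheromones reached too.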

Other observations

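Some of the brightest probe sets were uncertain in their gene. The brightest is annotated to Baiap2l1 (13.94), but none of its accessions matched a RefSeq gene, and the other probe sets of that symbol stood at 4.73 and 10.17. The probe set annotated to Sympk (13.44) had no such match either, and the others of that symbol stood at 10.39 and 13.44. Other probe sets among the brightest belonged to Actb (13.72), Pabpc1 (13.69), which binds poly(A) tails, and the ribosomal proteins Rplp1 (13.63), Rps18 (13.52) and Rpl10 (13.49), with Mt2 (13.33), a metallothionein, and the zinc transporter Slc39a4 (13.13).

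Listed genes with probe sets of different classes included Top2a (11.27 and 5.36), the topoisomerase of dividing cells, and Prkch (9.63 and 4.99), a protein kinase C form.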
